A study of Mus musculus with 16 samples.

Results

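The distal colon of Ednrb-null mice, a model of Hirschsprung disease (HSCR), was compared with the distal colon of WT littermates. The comparison used the raw read counts of the 8 libraries whose titles place them in the distal colon, out of 16 libraries in the series, with 4 libraries from HSCR mice and 4 from WT mice. The other 8 libraries came from the proximal colon of mice of the same genotypes. HSCR mice were homozygous for the targeted Ednrb allele (Ednrb tm1Ywa, Ednrb -/-) and WT mice carried no targeted allele. Both were of a hybrid C57BL6/J-129Sv background, of both sexes, and 2 to 4 weeks old. RNA was taken from the longitudinal muscle with adherent myenteric plexus (LMMP), the outer muscle layer with the nerve cell groups that lie on it, which was peeled from the colon by microdissection. The tissue tag of the distal libraries reads proximal colon, and the segment was therefore taken from the titles. Libraries are named by genotype and replicate number. Expression is given in CPM (counts scaled to a common library size) with TMM (trimmed mean of M values) factors, and each library is 1 sample. Nothing in the labels ties a replicate to a separate animal, so p-values measure the spread between these samples.

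Ednrb encodes the endothelin receptor type B, a G protein-coupled receptor that neural crest cells carry as they move down the fetal gut, and its ligand endothelin 3 (Edn3) is made by the gut mesenchyme. These crest cells become the neurons and glia of the enteric nervous system (ENS). Without the receptor they do not reach the end of the gut, and the distal colon is left with few or no ganglia while extrinsic nerve fibers and Schwann cells can still enter it. By staining of a neuronal protein, the study found the distal HSCR colon sparsely innervated, with few and small ganglia. Bulk RNA cannot tell fewer cells of a type from less RNA per cell.

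The 4 WT libraries held 31363925 to 45500911 reads assigned to genes and the 4 HSCR libraries 22939717 to 42426928. The position of each library along the colon was checked first, because the replicates of 1 group did not agree. Hoxd13, a homeobox gene that marks the hindgut end of the body axis, stood at 140.5, 153, 117 and 215 CPM in WT 1 to 4 and at 0.615, 113, 219 and 14 CPM in HSCR 1 to 4. HSCR 1, 2 and 4 lay below all WT distal libraries, HSCR 2 by little, and the level in HSCR 1 was below the 0.861 to 23.9 CPM of the 4 WT proximal libraries. Hoxd9, which lies further from the posterior end of the same cluster, stood at 7.47, 8.59, 6.1 and 6.67 CPM in WT 1 to 4 and at 82.1, 6.13, 4.6 and 65.1 CPM in HSCR 1 to 4, with HSCR 1 and 4 the highest. A list of 13 posterior Hox genes did not follow Hoxd13. Its mean log2 CPM was 3.67, 3.47, 2.26 and 2.47 in WT 1 to 4. In HSCR 1 to 4 it was 2.91, 3.86, 3.48 and 3.07, with HSCR 1 and 4 inside the WT range. Of the 13 genes, 10 were higher in HSCR than in WT distal colon with all 8 libraries, and 11 without HSCR 1.

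A segment score was built from the WT libraries alone, as the mean log2 CPM of the 25 genes that stood highest in WT distal over WT proximal colon minus that of the 25 that stood lowest. By this choice of genes it separated the WT segments, with 1.45 to 2.22 in WT distal and -3.10 to -2.43 in WT proximal libraries. HSCR distal 2 and 3 scored 1.94 and 3.05, within or above the WT distal range. HSCR distal 1 scored -2.60, within the WT proximal range, and HSCR distal 4 scored -1.10, between the ranges. The library labelled HSCR proximal 1 scored 0.31, also between the ranges, with Hoxd13 at 125 CPM. Whether HSCR distal 1 and HSCR proximal 1 were exchanged, or came from another position or genotype than their labels give, was not tested, and every value by segment or genotype takes the labels as they stand. Gene lists are therefore described with all 8 libraries and with the 7 that remain without HSCR 1, and single genes by their values in every library.

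Ednrb itself stood at 11.8, 15.7, 29.5 and 43 CPM in WT 1 to 4. In HSCR 1 to 4 it stood at 94.7, 5.43, 6.1 and 9.48 CPM. HSCR 1 was above every WT distal library, and the other 3 HSCR libraries were below every WT distal library. In the proximal colon Ednrb stood at 64.5, 33.8, 67.1 and 53.0 CPM in WT 1 to 4 and at 7.84, 11.9, 37.4 and 35.3 CPM in HSCR 1 to 4. Libraries labelled HSCR proximal 3 and 4 thus also held Ednrb reads within the WT distal range, and the level of this gene alone does not give the genotype. The log2 fold change (HSCR over WT, here and below with its SE) was 0.27 ± 0.95 with 8 libraries (edgeR quasi-likelihood test) and -1.83 ± 0.51 with 7. HSCR 1 was set aside for its Ednrb level and its position genes, so values of Ednrb with 7 libraries follow from that choice and are a description, with no test. Counts were made per gene, so reads from the parts of Ednrb (chromosome 14, 104052061 to 104081838, mm39) that the allele leaves in place are part of these values.

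**Figure D1:**
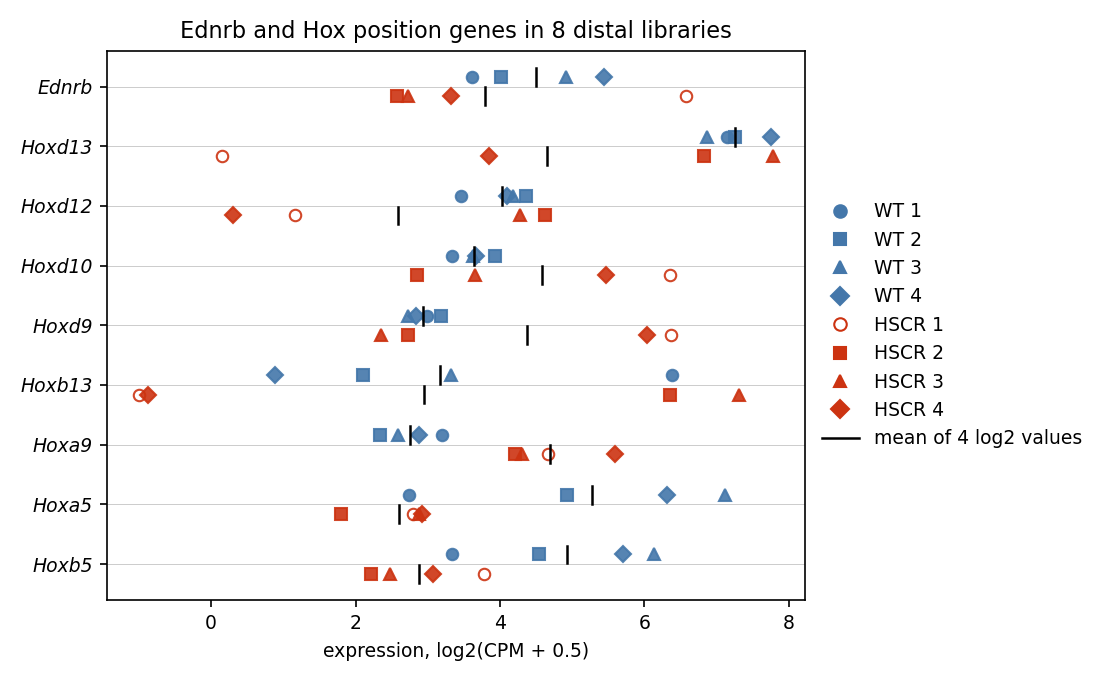
Expression of Ednrb and 8 Hox genes in the 8 distal libraries, as log2(CPM + 0.5) on the horizontal axis, with WT in blue, HSCR in red, HSCR 1 as open circles and black bars for the mean of the 4 log2 values of a group. HSCR 1 lies far from HSCR 2 to 4 for Ednrb and Hoxd13, HSCR 1 and 4 lie together for Hoxd9 and Hoxd10, and for Hoxa9 all HSCR libraries (18.1 to 47.9 CPM) lie above all WT libraries (4.55 to 8.66 CPM).

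The libraries also differed in what else the LMMP strips held. Transcripts of skeletal muscle were high in WT 1 and HSCR 2, with a mean over the list of 14 genes of 4.72 and 4.83 on the log2 CPM scale against -1.94 to 0.26 in the other 6 libraries. Hoxb13, expressed at the anal end, stood at 82.6 CPM in WT 1, 81.5 CPM in HSCR 2 and 158 CPM in HSCR 3, and at 0 to 9.51 CPM elsewhere. Protein-coding genes over 6000 bases long stood -0.66 (HSCR 2) to 0.90 (WT 4) log2 units from those under 2000 bases, each gene against its own mean over the 8 libraries, with both genotypes spread over this range. Xist and the Y-linked Ddx3y were both present in WT 4 (245 and 17.1 CPM) and HSCR 3 (199 and 3.67 CPM), whereas WT 3 had Xist alone and the other 5 had Y-linked transcripts with Xist at 0 to 0.137 CPM. The part of these differences in the results below was not tested.

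No gene passed the test between HSCR and WT distal colon at an adjusted p under 0.05 and a log2 fold change beyond 1, which is 0% of the 17059 genes tested with 8 libraries by the edgeR quasi-likelihood test (smallest adjusted p = 0.9998). At an unadjusted p under 0.05, 300 genes (1.76%) were lower and 150 (0.879%) were higher in HSCR colon. In 197 genes (1.15%) every HSCR library lay below every WT library, and in 115 (0.674%) every HSCR library lay above.

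Without HSCR 1, again 0% of 17715 genes passed (smallest adjusted p = 0.552, for Gfap), while 732 genes (4.13%) were lower and 196 (1.11%) higher at an unadjusted p under 0.05, and 571 (3.22%) lay apart on the lower side and 362 (2.04%) on the higher side. Of the 732 genes lower with 7 libraries, 229 were among the 300 lower with 8 (31.3% and 76.3% of each list). DESeq2, which estimates the spread differently, called 41 genes lower (0.187% of 21919) and 9 higher (0.0411%) with 8 libraries, and 325 lower (1.76% of 18513) and 35 higher (0.189%) with 7. The edgeR likelihood ratio test called 7 genes with 8 libraries and 142 with 7, and limma-voom with quality weights called 0 in both. The likelihood ratio test with 4 RUVr factors, the approach that the study's methods name, called 1134 and 2160. Those 4 factors came from the residuals of these same 8 or 7 libraries and left little spread to test against. The study's methods also give a limit of 1.5-fold, unlike the log2 fold change beyond 1 used here. These 2 counts are therefore no measure of the study's own result. The common biological coefficient of variation was 0.737 with 8 libraries. By the edgeR test every adjusted p with 8 libraries was 0.9998 or more, so it is not repeated per gene below, and with 7 libraries only Gfap was under 0.81. Of the genes named below, those outside the rule given in the methods, among them most of the neuronal genes, were chosen after their values were seen.

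Most genes of enteric neurons were lower in HSCR 2 to 4 than in WT distal colon, and HSCR 1 was the exception. HSCR 1 was set aside for its Ednrb level and position genes, and neuronal and glial genes may follow the same property of that library. Counts, medians and p-values with 7 libraries, here and below, are therefore a description and no independent support for a difference. Of 98 genes in 6 lists of neuronal, transmitter and synaptic genes, 95 were tested with 7 libraries, 89 were lower, 62 were lower at an unadjusted p under 0.05 (background 4.13%), 20 lay below every WT library (background 3.22%), and DESeq2 called 41 of 97 lower (background 1.76%). The median member differed by -3.77 on the log2 scale, and the median of all genes tested by 0.03. With 8 libraries, 81 of 93 tested were lower, 15 at an unadjusted p under 0.05 (background 1.76%), none lay apart, and the median was -1.53 against 0.04 over all genes.

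Elavl4, an RNA-binding protein of postmitotic neurons (HuD), stood at 2.45, 22.2, 109.6 and 79 CPM in WT 1 to 4 (53.3 ± 49.6, SD, n = 4). HSCR 2 to 4 held 0.438, 0.508 and 0.0913 CPM and HSCR 1 held 41.2 CPM. HSCR 2 to 4 were near 0 and below every WT library, while HSCR 1 lay inside the WT range, and WT 1 was the lowest WT library. The log2 fold change was -7.29 ± 1.45 with 7 libraries (adjusted p = 0.81) and -2.26 ± 1.76 with 8.

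All 18 pan-neuronal genes were lower with 7 libraries (median log2 fold change -3.65), 13 of them at an unadjusted p under 0.05 (background 4.13%). With 8 libraries 15 of 18 were lower (median -1.37), 1 at that p (background 1.76%). The 3 with the highest mean CPM were Uchl1, a neuronal ubiquitin hydrolase, Prph, the intermediate filament peripherin, and Stmn2, a regulator of microtubules in growing axons. Uchl1 stood at 23.4, 82.2, 312 and 232 CPM in WT 1 to 4 and 218, 25.2, 7.79 and 1.96 CPM in HSCR 1 to 4. Its groups overlapped even without HSCR 1, since HSCR 2 was just above WT 1. Stmn2 stood at 18.2, 50.9, 276 and 184 CPM (WT) and 162, 17.8, 5.73 and 10.1 CPM (HSCR), with HSCR 2 to 4 below WT 1, HSCR 2 by little. Tubb3, the class III tubulin that the Tuj1 antibody detects, stood at 4.6, 20.2, 218 and 131 CPM (WT) and 121, 11.4, 4.94 and 0.48 CPM (HSCR), so that HSCR 2 and 3 exceeded WT 1.

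The mean log2 CPM over the 18 genes was 1.61, 3.72, 6.08 and 5.68 in WT 1 to 4 and 5.63, 2.04, 0.71 and -0.33 in HSCR 1 to 4. The difference in means was -3.47 without HSCR 1 (exact two-sided permutation test, p = 0.086, adjusted over 19 cell type lists 0.31) and -2.26 with it (p = 0.20, adjusted 0.76). The libraries whose names begin with LC (WT 3 and 4, HSCR 3 and 4) differed by -5.69, and the other 4 by 1.17 with HSCR 1 and -0.63 without it. WT 1 and 2 had lower list means than WT 3 and 4, and the difference was larger within the LC libraries than among the others. Among those other 4 libraries the list means of ENS transcription factors, inhibitory neurons, sensory genes, synaptic vesicle genes, sodium and calcium channels, RET signalling and neural adhesion molecules were also higher in HSCR, by 0.12 to 0.82, and without HSCR 1 they were lower, with differences of -3.33 to -0.31. The library names are not stated to mark a batch.

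Genes of excitatory motor neurons had a lower median, -5.82 over 12 tested genes with 7 libraries and -2.47 over 11 with 8. With 7 libraries 10 were lower at an unadjusted p under 0.05 (background 4.13%) and 4 lay apart on the lower side (background 3.22%). Chat, the enzyme that makes acetylcholine, had no count in any of the 4 HSCR libraries, and stood at 0, 1.15, 6.74 and 8.4 CPM in WT 1 to 4. WT 1 also held none, so the groups touched. Against a floor of 3 counts over the 4 HSCR libraries, the pooled WT level was at least 215-fold higher, which covers counting error alone. Slc5a7, the choline transporter, stood at 0.515, 1.24, 46.6 and 40.9 CPM in WT and 11.8, 2.81, 0.621 and 0.0457 CPM in HSCR libraries, and Slc17a6, a vesicular glutamate transporter, at 0, 0.281, 3.55 and 3.11 CPM in WT and at 0 in all 4 HSCR libraries (at least 93.8-fold higher in WT by the same floor).

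Calb2 (calretinin), a calcium-binding protein whose loss from nerve fibers is used to diagnose HSCR in rectal biopsies, stood at 5.15, 41.2, 285 and 172 CPM in WT 1 to 4. HSCR 1 held 9.69 CPM and HSCR 2 to 4 held 0, 0.0565 and 0 CPM, 2 counts in all. Pooled over libraries the WT level was 7671-fold that of HSCR 2 to 4 (95% exact Poisson interval 2124 to 63344, counting error alone), and it was 1 of the 5 genes with the smallest p on the lower side with 7 libraries (adjusted p = 0.81). Tac1, which encodes substance P, stood at 3.09, 2.22, 144 and 61.3 CPM (WT) and 25.6, 0, 1.24 and 0 CPM (HSCR). Penk, the enkephalin precursor, overlapped between the groups, with 14.3, 21.5, 227 and 113 CPM in WT and 211, 14.9, 13 and 43.4 CPM in HSCR libraries.

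Inhibitory motor neuron genes had a median of -5.16 over 11 genes with 7 libraries, all 11 lower, and -0.98 with 8. Nos1, the neuronal nitric oxide synthase, stood at 9.92, 59.9, 259 and 290.2 CPM in WT 1 to 4 and 116, 4.16, 2.68 and 1.07 CPM in HSCR 1 to 4. The 3 HSCR libraries other than HSCR 1 lay below all WT libraries (log2 fold change -5.86 ± 1.26, adjusted p = 0.81). Vip, the relaxant peptide, stood at 5.35, 10.5, 499 and 273 CPM (WT) and 377, 0.802, 12.9 and 0.343 CPM (HSCR), and Ass1, which recycles citrulline to arginine for nitric oxide synthesis, at 17, 33.5, 279.6 and 203 CPM (WT) and 146, 3.06, 11.5 and 4.61 CPM (HSCR). For Vip, HSCR 3 exceeded WT 1 and 2.

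Sensory and interneuron genes were low in WT 1 and 2 as well, so their groups seldom separated. With 7 libraries 8 of 13 tested were lower at an unadjusted p under 0.05 (background 4.13%), and 1, Grp (gastrin-releasing peptide), lay apart (background 3.22%). The medians were -1.27 with 8 libraries and -4.04 with 7. Htr3a, a subunit of the serotonin-gated channel, stood at 2.06, 10.3, 169 and 149 CPM in WT and 9.3, 4.05, 2.4 and 0.0913 CPM in HSCR libraries, and Sst (somatostatin) at 2.64, 2.75, 152 and 58.8 CPM (WT) and 2.46, 2.99, 1.75 and 0 CPM (HSCR). In these 2 genes HSCR 1 was as low as WT 1 or 2. Of 27 synaptic vesicle and release genes, 26 were lower in both fits (median -3.16 with 7 libraries and -1.59 with 8). At an unadjusted p under 0.05, 18 were lower with 7 libraries (background 4.13%) and 5 with 8 (background 1.76%). Snap25, a core fusion protein, stood at 10.7, 27.4, 178 and 136 CPM (WT) and 39.8, 6.75, 2.71 and 0.32 CPM (HSCR). Rims1, an active zone scaffold with the highest mean CPM of the list, was the exception, with 100.02, 175, 193 and 227 CPM (WT) and 93.2, 128, 329 and 341 CPM (HSCR). Among 25 sodium and calcium channel genes the median was -0.75 with 8 libraries and -1.17 with 7, and the 3 with the highest mean CPM, Cacna1c, Cacna1h and Cacna2d1, which muscle also uses, differed by 0.17 to 0.58 log2 units with 7 libraries.

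**Figure D2:**
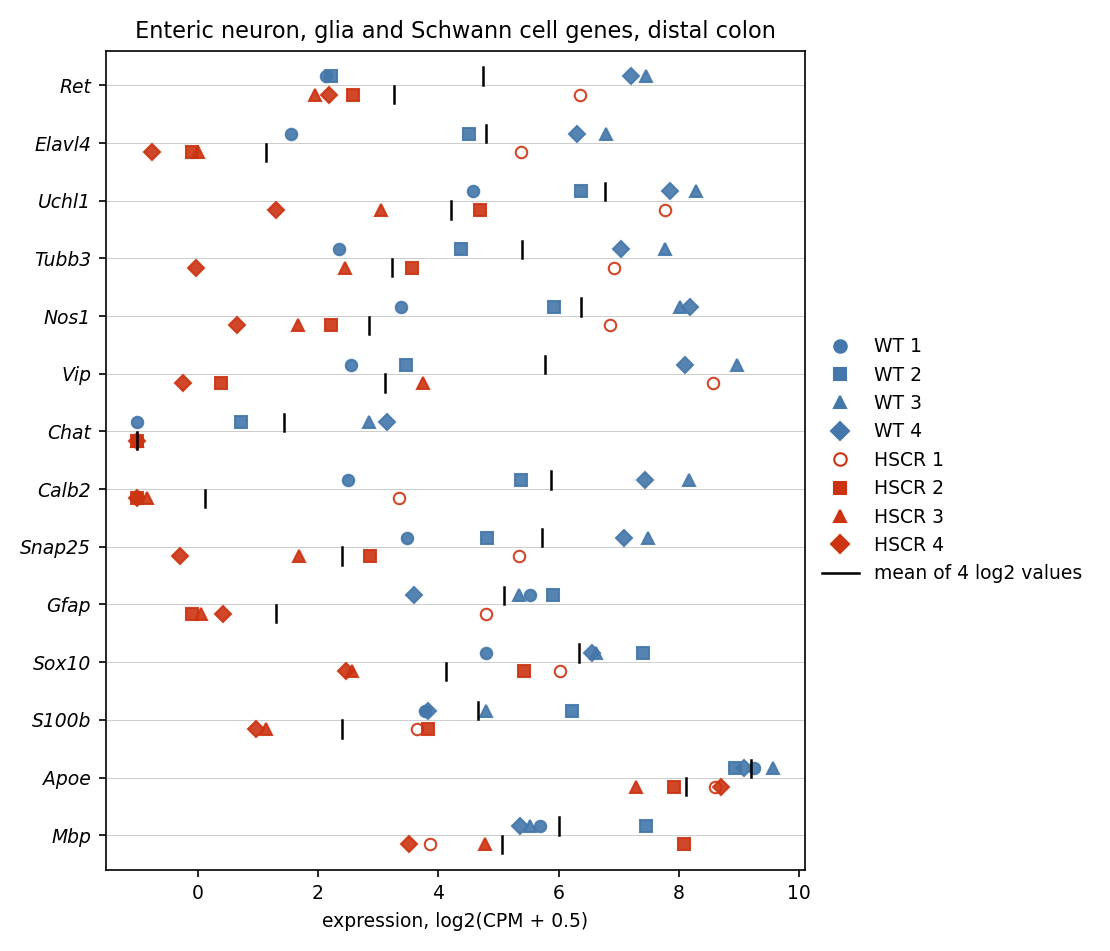
Expression of 9 enteric neuron genes, 4 glial genes and 1 myelin gene (bottom) in the 8 distal libraries, as log2(CPM + 0.5), with WT in blue, HSCR in red, HSCR 1 as open circles and bars for the mean of 4 log2 values. For Elavl4, Calb2 and Gfap, HSCR 2 to 4 sit near 0 CPM and below all WT libraries, HSCR 1 sits within the range of WT, and for Mbp HSCR 2 is the highest of all libraries (270.1 CPM).

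The receptor tyrosine kinase gene Ret, the gene most often mutated in human HSCR, and its co-receptor Gfra1 carry the GDNF signal that draws crest cells along the gut. Ret stood at 3.86, 4.13, 174 and 148 CPM in WT 1 to 4 and 81.2, 5.51, 3.36 and 4.06 CPM in HSCR 1 to 4. WT 1 and 2 were as low as HSCR 2 to 4, so only WT 3 and 4 and HSCR 1 were high. Gfra1 stood at 10.5, 42.7, 119 and 116 CPM (WT) and 33, 3.54, 1.72 and 8.36 CPM (HSCR), with HSCR 2 to 4 below all WT libraries (log2 fold change -3.96 ± 0.97, adjusted p = 0.81). Nrtn, a ligand of this family made by muscle, overlapped, with 32.7, 48.3, 72.3 and 22.5 CPM (WT) and 77.5, 71.1, 29.1 and 61.5 CPM (HSCR). Over the 13 tested genes of this pathway 9 were lower in each fit (medians -0.54 with 8 libraries and -0.71 with 7).

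Transcription factors of the ENS had medians of -1.01 and -1.66 with 8 and 7 libraries. Tlx2, a homeobox factor of enteric neurons, stood at 0.676, 5.19, 28.1 and 21.4 CPM in WT and 15.4, 0.656, 0.254 and 0 CPM in HSCR libraries, with HSCR 1 again within the WT range. Meis2, Hand2 and Etv1, the 3 of the list with the highest mean CPM, overlapped, with Hand2 at 46.4, 106, 167 and 152 CPM in WT and 113, 52.1, 77.9 and 119 CPM in HSCR libraries. Hoxb5, which enteric crest cells express, stood at 9.6, 22.7, 69.8 and 51.6 CPM (WT) and 13.2, 4.12, 5.08 and 7.88 CPM (HSCR) (log2 fold change -2.31 ± 0.64 with 8 libraries and -2.76 ± 0.69 with 7). Hoxa5, its counterpart in the A cluster, stood at 6.21, 30.0, 138 and 79.4 CPM (WT) and 6.45, 2.99, 6.89 and 7.08 CPM (HSCR) (log2 fold change -3.43 ± 0.82 with 8 libraries). In both genes HSCR 1 lay nearer to the other HSCR libraries than to WT 2 to 4, unlike in Elavl4, and it overlapped WT 1.

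The other members of the endothelin system overlapped between the groups. Edn3, the ligand, stood at 30.0, 78.9, 41.9 and 37.2 CPM in WT 1 to 4 and 27.1, 33.3, 14 and 28.5 CPM in HSCR 1 to 4, so that HSCR 3 was lowest and the groups overlapped (log2 fold change -0.85 ± 0.41). Ednra, the other receptor, stood at 6.25, 9.85, 11.6 and 22.3 CPM (WT) and 45.8, 3.61, 21.3 and 23.3 CPM (HSCR), with HSCR 1 highest and HSCR 2 lowest. Ece1, which cleaves the ligand precursors, differed by 0.25 ± 0.68 log2 units. Edn1, mainly an endothelial product, stood at 2.25, 5.42, 6.43 and 8.03 CPM (WT) and 2.49, 5.76, 10.5 and 32.4 CPM (HSCR), and its highest value, in HSCR 4, came from the library with the highest endothelial list mean (5.88). With 7 libraries Edn1 (1.55 ± 0.67, adjusted p = 0.94) was on the higher side and the converting enzyme gene Ece2 on the lower side at an unadjusted p under 0.05. The median of the 8 tested members was 0.42 with 8 libraries and 0.33 with 7. With 8 libraries 0 members lay apart, and with 7 none did other than Ednrb, whose level was a reason to set HSCR 1 aside.

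Glial genes were lower too, but unevenly. Gfap, the intermediate filament of enteric glia, had the smallest p of all genes with 7 libraries. It stood at 45.8, 59.4, 39.9 and 11.6 CPM in WT 1 to 4 (39.2 ± 20.1, SD, n = 4), 27.2 CPM in HSCR 1 and 0.438, 0.536 and 0.845 CPM in HSCR 2 to 4. Every WT library, WT 1 included, was well above HSCR 2 to 4, and HSCR 1 lay within the WT range (log2 fold change -6.03 ± 0.72, edgeR adjusted p = 0.552, DESeq2 adjusted p = 2.3e-16, all with 7 libraries). Kcnj10, a glial potassium channel, was likewise lower in HSCR 2 to 4, with 4.54, 9.63, 30.5 and 23.4 CPM in WT and 10.5, 0.182, 0.649 and 0.137 CPM in HSCR libraries.

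Glial genes that Schwann cells share stood higher in HSCR 2 than in HSCR 3 and 4. Sox10, the crest factor kept by all peripheral glia, stood at 27.1, 168, 98.4 and 93.4 CPM in WT and 64.3, 42.6, 5.45 and 5.02 CPM in HSCR libraries. HSCR 3 and 4 were low and HSCR 2 was inside the WT range (log2 fold change -2.42 ± 0.96 with 7 libraries, adjusted p = 0.87). S100b stood at 13.2, 74.5, 27.2 and 13.6 CPM (WT) and 12, 13.8, 1.69 and 1.46 CPM (HSCR). Apoe, a lipid carrier that glia and macrophages both make, was lower in every HSCR library, HSCR 1 included, with 606, 486, 754 and 540.0 CPM in WT and 385, 241, 156 and 414 CPM in HSCR libraries (log2 fold change -0.98 ± 0.37 with 8 libraries). Of 20 glial genes 18 were lower in both fits, 5 at an unadjusted p under 0.05 with 8 libraries (background 1.76%) and 11 with 7 (background 4.13%), and the medians were -1.41 and -1.92.

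Genes of myelinating Schwann cells differed between the HSCR libraries. Mbp (myelin basic protein) stood at 51, 174, 45.5 and 40.6 CPM in WT and 14, 270.1, 26.8 and 10.9 CPM in HSCR libraries. HSCR 2 was the highest library and the other HSCR libraries were below the WT libraries. The median over the list was 0.11 with 8 libraries (11 of 15 higher) and 0.32 with 7 (10 of 16 higher), with none at an unadjusted p under 0.05 in either, while its mean log2 CPM differed in the other direction, by -0.23 with 7 libraries and -0.64 with 8 (exact permutation p = 0.77 and 0.43). HSCR 2 was also 1 of the 2 libraries rich in skeletal muscle transcripts; the part of this in the myelin values was not tested.

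Smooth muscle genes differed between genotypes by less than the spread between replicates. Of 25 smooth muscle contractile genes, 15 were higher and 10 lower with 8 libraries, and with 7 libraries 17 were higher and 8 lower, none at an unadjusted p under 0.05 in either, with medians of 0.09 and 0.09. Acta2 (smooth muscle actin) stood at 11116, 8369, 16662 and 13808 CPM in WT 1 to 4 and 17684, 11791, 15115 and 16349 CPM in HSCR 1 to 4. Myh11, the smooth muscle myosin heavy chain, stood at 1582, 2173, 15315 and 20364 CPM (WT) and 10709, 2076, 14616 and 17808 CPM (HSCR), with WT 1, WT 2 and HSCR 2 low and the groups overlapping throughout. The mean log2 CPM of the list differed by 0.11 (exact permutation p = 0.89) between 10.18 ± 0.51 in WT and 10.29 ± 0.38 in HSCR libraries (SD, n = 4), and by 0.09 without HSCR 1 (p = 0.89).

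Receptors and channels through which muscle answers enteric transmitters had no member at an unadjusted p under 0.05: 10 of 24 were higher and 14 lower in both fits, with medians of -0.07 (8 libraries) and -0.06 (7). Gucy1a1, a subunit of the nitric oxide receptor, had the lowest value among the 3 with the highest mean CPM, at 294, 358, 160.4 and 171 CPM in WT and 139, 201, 80.8 and 126 CPM in HSCR libraries (log2 fold change -0.84 ± 0.40). Kit and Ano1, the receptor and the chloride channel that define the interstitial cells of Cajal, the gut's pacemakers, were present in all HSCR libraries. Kit stood at 15.3, 50.8, 133 and 193 CPM (WT) and 129, 23.8, 68.8 and 405 CPM (HSCR) and Ano1 at 28.9, 22.1, 90.7 and 134 CPM (WT) and 75.3, 41.2, 105 and 204 CPM (HSCR), with HSCR 4 highest for both and WT 1 or WT 2 lowest. The list mean of these cells differed by 0.14 with 8 libraries and 0.06 with 7 (exact permutation p = 0.74 and 0.86). Of the PDGFRA-positive interstitial cells, which relay purinergic inhibition, Kcnn3 (the SK3 potassium channel) was lower, with 52.6, 90.9, 92.8 and 139.8 CPM (WT) and 57.1, 41.9, 28.4 and 58.1 CPM (HSCR) (log2 fold change -0.99 ± 0.36, overlapping by WT 1), while Pdgfra overlapped (-0.27 ± 0.42).

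**Figure D3:**
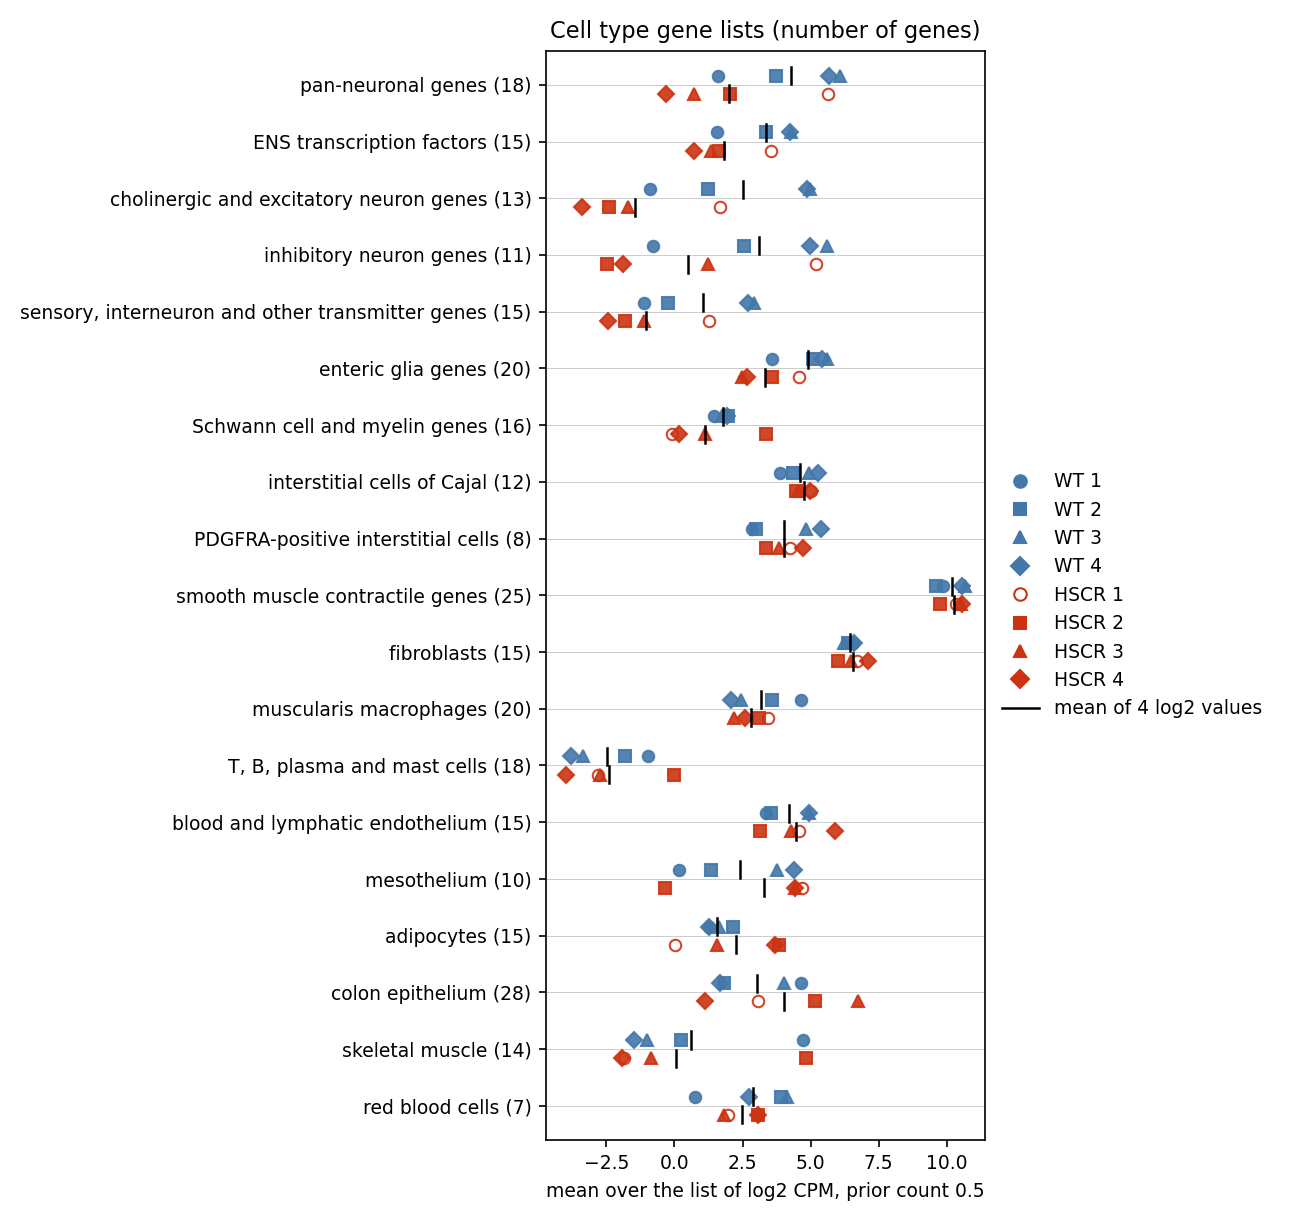
Mean log2 CPM over each of 19 cell type gene lists in the 8 distal libraries, with the number of genes in parentheses, WT in blue, HSCR in red, HSCR 1 as open circles and bars for the mean of 4 libraries. HSCR 2 to 4 sit left of WT 2 to 4 in the 5 neuronal lists and the glial list, where HSCR 1 lies within the WT range. WT 1 lies left of HSCR 2 in the pan-neuronal, transcription factor and glial lists and left of HSCR 3 in the inhibitory list. The groups overlap in the smooth muscle and fibroblast lists, and skeletal muscle is high in WT 1 (4.72) and HSCR 2 (4.83) alone.

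Over the 19 cell type lists, no difference passed the exact permutation test after adjustment. The lowest adjusted p was 0.76 with 8 libraries, where 4 against 4 allows no p below 0.0286, and 0.31 with 7, where 3 against 4 has the same limit. A list that alone reached this limit could not pass the adjustment over 19 lists, so failing it does not show that the groups are alike. The difference furthest from 0 was that of cholinergic and excitatory neuron genes, -3.99 with 8 libraries (exact permutation p = 0.086) and -5.03 with 7 (p = 0.057). That of enteric glia genes was -1.59 (exact permutation p = 0.086) and -2.01 (p = 0.086).

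RNA of extracellular matrix genes, which the study examined in the proximal colon, did not separate the groups for the chains with high CPM. By trichrome staining, the study also reported less collagen in the distal colon of HSCR than of WT mice. That is a measure of stained collagen in the muscle layer and not of RNA. Of 41 collagen genes tested with 8 libraries, 21 were higher and 20 lower (median 0.01), and with 7 libraries 16 of 44 were higher and 28 lower (median -0.18). Col1a1, a chain of the main fibrillar collagen, stood at 2295, 1599.7, 2632 and 2253 CPM in WT and 5733, 1449, 1789 and 1109.8 CPM in HSCR libraries, and Col3a1 at 2725, 2509.5, 4822 and 4705 CPM (WT) and 5661, 1952, 3655 and 5131 CPM (HSCR). HSCR 1 was the highest library for both, and the other 3 overlapped the WT libraries (Col1a1 log2 fold change 0.22 ± 0.54 with 8 libraries and -0.62 ± 0.33 with 7). Fn1 (fibronectin) and Eln (elastin) differed by 0.64 ± 0.80 and 0.86 ± 0.50 log2 units with 8 libraries.

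With 7 libraries 8 of the 44 collagen genes were lower at an unadjusted p under 0.05 (background 4.13%), among them Col15a1 and Col5a3 at moderate levels and several minor chains. Col9a2, a chain of a collagen that decorates fibrils, stood at 6.86, 29.6, 85 and 63.5 CPM in WT 1 to 4 and 22.2, 0.948, 1.02 and 3.27 CPM in HSCR 1 to 4. HSCR 2 to 4 lay below every WT library (log2 fold change -4.71 ± 0.98, adjusted p = 0.81, DESeq2 adjusted p = 7.7e-06), and with HSCR 1 the groups overlapped (-2.69 ± 1.15). Col28a1, made by peripheral glia, stood at 4.96, 16.1, 57.5 and 38.2 CPM (WT) and 26.8, 1.68, 5.0 and 5.34 CPM (HSCR), and Col11a1, a fibril-nucleating chain, at 4.09, 10.9, 35.8 and 37.7 CPM (WT) and 18.3, 3.79, 2.63 and 1.76 CPM (HSCR). In each of these genes WT 3 and 4 were the highest libraries and HSCR 1 lay within the WT range, as it did for Elavl4. Of 43 collagen genes, DESeq2 called 4 lower (background 1.76%) with 7 libraries. Tnr (tenascin-R), a matrix protein of nervous tissue, followed with 0.58, 0.758, 9.48 and 17 CPM (WT) and 1.37, 0, 0.113 and 0.183 CPM (HSCR).

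A few matrix genes lay on the higher side. Lox, the lysyl oxidase that cross-links collagen and elastin, stood at 93.4, 42.2, 43.6 and 62.4 CPM in WT and 158, 81.4, 130.2 and 159 CPM in HSCR libraries; WT 1 exceeded HSCR 2 and the other values did not overlap (log2 fold change 1.12 ± 0.35 with 8 libraries, and 1.01 ± 0.38 with 7, adjusted p = 0.83). Thbs4 (thrombospondin 4) stood at 23, 9.74, 19.5 and 13.7 CPM (WT) and 44, 28, 119.8 and 17.2 CPM (HSCR), where HSCR 3 was the highest and HSCR 4 was inside the WT range (1.61 ± 0.57). Sdc1 (syndecan 1), a heparan sulfate proteoglycan that epithelial cells also carry, stood at 32.7, 8.34, 38.6 and 35.1 CPM (WT) and 95.2, 33.4, 109 and 40.5 CPM (HSCR) (1.27 ± 0.54). Its highest HSCR values were in HSCR 1 and HSCR 3, and HSCR 3 was also the library with the highest epithelial list mean (6.75).

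Fbn2, a microfibril protein of growing tissue, was far higher in HSCR 1 than elsewhere, with 271 CPM against 8.4, 8.25, 23.5 and 21.1 CPM in WT 1 to 4 and 15.1, 12.5 and 54.1 CPM in HSCR 2 to 4. HSCR 4 was also above the WT libraries, and the log2 fold change was 2.58 ± 0.99 with 8 libraries and 0.84 ± 0.64 with 7. HSCR 1 also had the highest cell cycle list mean of the 8 libraries, 6.31 against 0.62 to 4.09 in the others, and HSCR proximal 1 the highest of the proximal libraries (5.89). Gpc6, a glypican, was lower in every HSCR library, with 5.09, 7.75, 6.3 and 19.6 CPM in WT and 1.03, 3.17, 2.54 and 2.63 CPM in HSCR libraries (-2.03 ± 0.57), and so was Lum (lumican), a small proteoglycan of collagen fibrils, with 209.6, 221, 273 and 244 CPM (WT) and 201, 146, 126 and 182 CPM (HSCR).

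Of the 38 matrix glycoproteins and proteoglycans 29 were higher and 9 lower with 8 libraries (median 0.40), 3 and 2 at an unadjusted p under 0.05 (background 0.879% and 1.76%). With 7 libraries 23 were higher and 15 lower (median 0.27), 1 and 3 at that p (background 1.11% and 4.13%). Laminin chains had medians of 0.43 and 0.32 over 11 genes with 8 and 7 libraries, and matrix proteases and their inhibitors 0.11 over 25 and 0.09 over 26. TGF-beta and fibrosis effectors were evenly split with 8 libraries (15 higher and 15 lower of 30, median 0.00) and more often lower with 7 (12 higher and 19 lower of 31, median -0.23), with 1 member on the higher side at an unadjusted p under 0.05 with 8, and 1 on each side with 7. Timp4, an inhibitor of matrix metalloproteinases, differed between HSCR 1 and the rest, with 4.22, 1.63, 1.45 and 1.15 CPM in WT, 0.335 CPM in HSCR 1 and 8.79, 9.15 and 8.15 CPM in HSCR 2 to 4 (log2 fold change 2.01 ± 0.58 with 7 libraries, adjusted p = 0.81). HSCR 2 to 4 lay above all WT libraries and HSCR 1 below them.

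**Figure D4:**
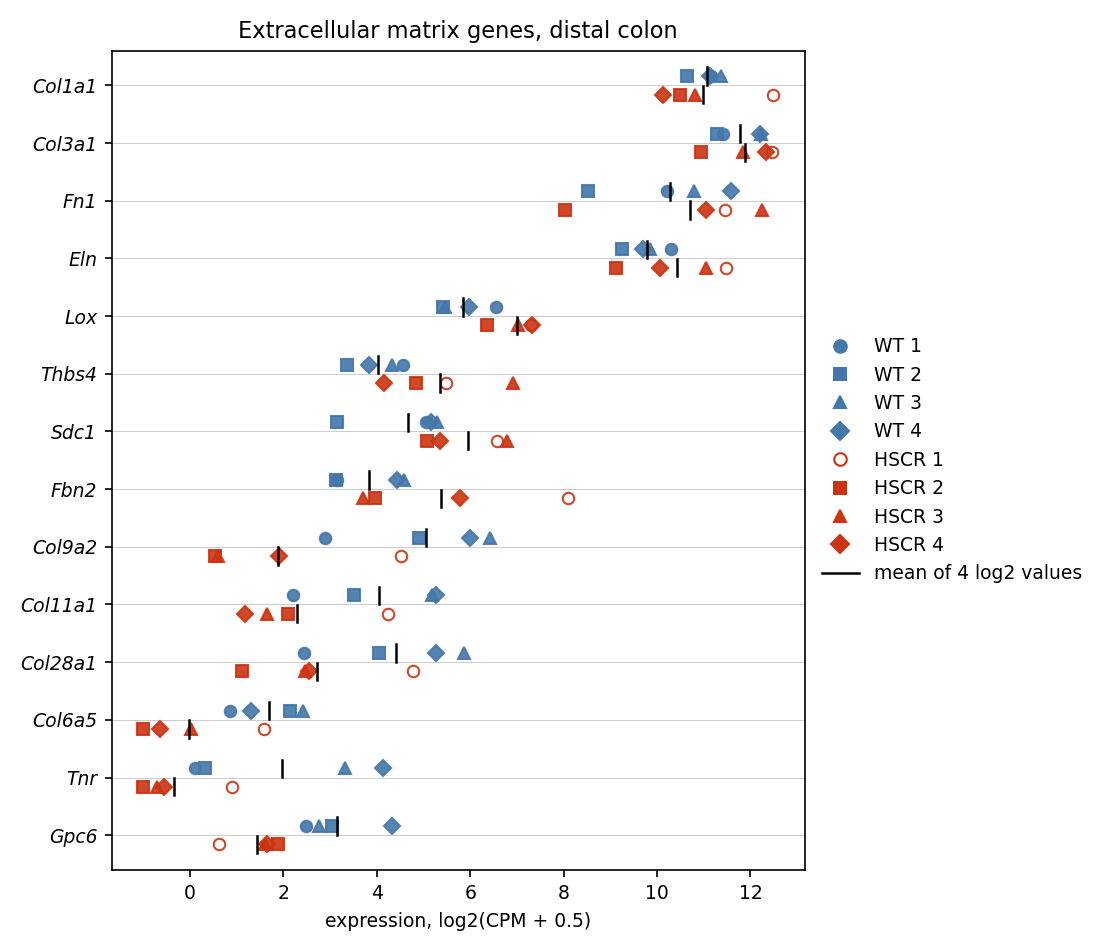
Expression of 14 extracellular matrix genes in the 8 distal libraries, as log2(CPM + 0.5), with WT in blue, HSCR in red, HSCR 1 as open circles and bars for the mean of 4 log2 values. The groups overlap for Col1a1, Col3a1, Fn1 and Eln, HSCR 2 to 4 lie below all WT libraries for Col9a2, Col11a1, Col6a5 and Tnr, and HSCR 1 (271 CPM) is the highest library for Fbn2.

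The study named 10 genes in the proximal colon of mice of the same series, so they are no independent choice here. In the distal colon 2 of 8 tested were higher (Thbs4 and Sdc1) and 6 lower with 8 libraries. At an unadjusted p under 0.05, 2 were higher (background 0.879%) and 2 lower (background 1.76%). With 7 libraries 2 of 9 were higher and 7 lower, 1 and 4 at that p (background 1.11% and 4.13%). None passed the edgeR test in either fit. DESeq2 called Slc17a6 lower in both (adjusted p = 0.032 with 8 libraries and 0.012 with 7) and Col9a2 lower with 7. Vcam1, an adhesion molecule of the immunoglobulin family, stood at 15.1, 8.95, 25.1 and 18.2 CPM in WT and 11.3, 5.14, 7.31 and 11.6 CPM in HSCR libraries (-0.92 ± 0.42), overlapping by WT 2. Oprk1, the kappa opioid receptor, stood at 0.258, 3.34, 15.7 and 18.3 CPM (WT) and 1.4, 0.729, 0 and 0 CPM (HSCR), with WT 1 lower than HSCR 1 and 2. Mmp7, a metalloproteinase of epithelial cells, was too low for the edgeR test, at 0 to 0.386 CPM in all 8 libraries, and DESeq2 did not call it with 8 libraries.

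Adhesion molecules of neural cells were lower as a list, 30 of 33 with 8 libraries and 32 of 34 with 7 (medians -1.41 and -2.31), 5 and 13 at an unadjusted p under 0.05 (background 1.76% and 4.13%), and 3 and 6 below every WT library (background 1.15% and 3.22%). Cntnap2, which clusters potassium channels along axons, was below every WT library in all 4 HSCR libraries, with 1.13, 1.63, 17.6 and 24.1 CPM in WT and 0.81, 0.948, 0.395 and 0.343 CPM in HSCR libraries (-4.10 ± 1.06). L1cam, the cell adhesion molecule of axons, stood at 5.67, 16.5, 154 and 137 CPM (WT) and 56.3, 5.47, 23 and 5.78 CPM (HSCR). Nlgn2 and Pcdh7, the pair with the highest mean CPM of the list, overlapped (-0.16 ± 0.50 and 0.48 ± 0.67). Ngfr, the low-affinity neurotrophin receptor of crest derivatives, stood at 5.92, 14.4, 120.2 and 117 CPM (WT) and 44.2, 6.45, 4.77 and 0.754 CPM (HSCR), where HSCR 1 lay within the WT range and HSCR 2 just above WT 1. Erbb3 and Egfr overlapped as well.

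A small set of genes separated all 8 libraries, HSCR 1 included, 197 (1.15%) on the lower and 115 (0.674%) on the higher side of 17059. For 4 against 4 libraries, a gene with no difference separates in either direction with a probability of 0.0286. The shares found were below that, so separation alone does not mark a difference between the genotypes. Hoxa9, a Hox gene of the caudal trunk, had the smallest p on the higher side with 8 libraries. It stood at 8.66, 4.55, 5.52 and 6.85 CPM in WT 1 to 4 and 24.8, 18.1, 19.3 and 47.9 CPM in HSCR 1 to 4, with no overlap (log2 fold change 2.11 ± 0.42, DESeq2 adjusted p = 0.0063). Selenos, a selenoprotein of the endoplasmic reticulum, stood at 20.4, 8.11, 23.4 and 24.2 CPM (WT) and 50.5, 40.4, 56.9 and 46.1 CPM (HSCR) (1.35 ± 0.35). Mgst3, a microsomal glutathione transferase, just separated the groups and stood at 26.5, 13.2, 30.2 and 23.5 CPM (WT) and 30.4, 55.8, 168 and 58.5 CPM (HSCR) and its paralog Mgst1 at 10.5, 16.1, 14.5 and 17.4 CPM (WT) and 13.5, 32.1, 88.3 and 71.3 CPM (HSCR), where only HSCR 1 overlapped WT.

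On the lower side were Creg2, a secreted glycoprotein of neurons, Drd2, the dopamine D2 receptor, Plcxd3, Asic4 and Fam219a. Creg2 stood at 4.86, 4.72, 27 and 30.9 CPM in WT 1 to 4 and 0.726, 0.912, 0.254 and 0.365 CPM in HSCR 1 to 4 (-4.85 ± 0.86, DESeq2 adjusted p = 4.0e-06). Unlike Elavl4 or Nos1, it was as low in HSCR 1 as in HSCR 2 to 4. Drd2 stood at 0.966, 0.393, 2.48 and 1.1 CPM in WT libraries and had 1 count in the 4 HSCR libraries together, for a pooled ratio of 191 (95% exact Poisson interval 34.3 to 7553). Plcxd3 stood at 0.902, 0.674, 0.806 and 1.86 CPM in WT libraries and had no count in HSCR libraries (WT at least 50.6-fold higher by the floor of 3 counts). Fam219a was lower by less but with little spread, at 16.1, 32.3, 28.1 and 32.4 CPM (WT) and 9.58, 9.44, 11.9 and 12.9 CPM (HSCR) (-1.31 ± 0.30).

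Others that separated all 8 libraries were Kcng4, a modifier of voltage-gated potassium channels, Adora1, the adenosine A1 receptor, and Nr4a3, a nuclear receptor induced by activity. Kcng4 stood at 11.4, 27.7, 29.2 and 32.6 CPM (WT) and 4.83, 8.46, 5.31 and 10.5 CPM (HSCR) (-1.77 ± 0.43) and Adora1 at 12.9, 20.2, 12 and 16.9 CPM (WT) and 5.08, 6.49, 7.26 and 6.92 CPM (HSCR) (-1.27 ± 0.32). Nr4a3 stood at 32.8, 10.9, 17.6 and 55.7 CPM (WT) and 1.9, 4.89, 5.65 and 8.29 CPM (HSCR) (-2.49 ± 0.60). It is 1 of 22 immediate early genes, whose list mean was highest in WT 4 (6.79) and lowest in WT 2 (2.98), so this list did not order the libraries by genotype; Fos stood at 196, 2.64, 774 and 2416 CPM (WT) and 279, 17, 638 and 318 CPM (HSCR).

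With 7 libraries the genes with the smallest p on the lower side were Gfap and Calb2, given above, and Vwa5b1, Kcnj10 and Nrsn1 (neurensin, a vesicle protein of neurons). Vwa5b1 stood at 1.67, 1.52, 12 and 11.9 CPM in WT and 9.27, 0, 0 and 0.0228 CPM in HSCR libraries, with 1 count in HSCR 2 to 4 together and a pooled WT level 800-fold higher (95% exact Poisson interval 144 to 31590). Nrsn1 stood at 6.12, 8.45, 40.7 and 24.3 CPM (WT) and 19.1, 0.656, 0.565 and 0.183 CPM (HSCR), with HSCR 2 to 4 below all WT libraries and HSCR 1 among them (-5.42 ± 0.93, adjusted p = 0.81). On the higher side, Zfas1, a host gene of small nucleolar RNAs, stood at 15.1, 21.6, 13 and 26 CPM (WT) and 15.3, 65.1, 41.7 and 48.9 CPM (HSCR), where HSCR 2 to 4 exceeded all WT libraries and HSCR 1 did not (1.46 ± 0.34, adjusted p = 0.81). Nipal1, a magnesium transporter, stood at 0.322, 0.0842, 0.207 and 0.828 CPM (WT) and 0.503, 1.68, 13.5 and 5.43 CPM (HSCR), highest in HSCR 3.

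Genes of other cell types were uneven across the libraries of a group. Krt5 and Krt14, keratins of the basal layer of stratified squamous epithelium, were among the 5 genes with the smallest p on the higher side with 8 libraries. Krt5 stood at 1.22, 0.393, 1.8 and 1.56 CPM in WT and 3.72, 15.2, 107 and 1.37 CPM in HSCR libraries, and Krt14 at 3.7, 0.112, 2.23 and 1.61 CPM (WT) and 13.9, 43.9, 48.2 and 2.9 CPM (HSCR). The DESeq2 adjusted p was 0.019 with 8 libraries and 8.3e-04 with 7 for Krt5, and 0.046 and 0.015 for Krt14. The highest values were those of HSCR 2 and 3, the HSCR libraries with high Hoxb13, HSCR 1 was also above the WT libraries, and HSCR 4 was within their range. WT 1 had high Hoxb13 as well, but Krt5 and Krt14 stood there at 1.22 and 3.7 CPM. Colon epithelium had 26 of 27 genes higher in both fits (medians 1.43 and 1.77), with list means of 4.65, 1.83, 4.04 and 1.68 in WT 1 to 4 and 3.07, 5.18, 6.75 and 1.12 in HSCR 1 to 4. HSCR 3 and 2 were highest and HSCR 4 lowest, and the difference was 0.98 with 8 libraries and 1.298 with 7 (exact permutation p = 0.54 and 0.51).

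Adipocyte genes were higher in 13 of 14 tested in both fits. With 8 libraries the median was 1.13 and 0 were at an unadjusted p under 0.05, and with 7 the median was 1.36 and 5 were at that p on the higher side (background 1.11%). Their list means differed by 0.70 with 8 libraries and 1.45 with 7 (exact permutation p = 0.40 and 0.11), with the high means in HSCR 2 and 4 (3.84 and 3.68) and the lowest in HSCR 1 (0.01). Fabp4, a fatty acid carrier of adipocytes and endothelium, stood at 45.3, 71, 32 and 33.4 CPM (WT) and 39.7, 151, 46.1 and 149 CPM (HSCR). Macrophages of the muscle layer had 16 of 20 genes lower with 8 libraries and 18 of 20 with 7 (medians -0.48 and -0.87), but WT 1 was the highest library and the difference in list means was -0.37 and -0.57 (exact permutation p = 0.60 and 0.54). Inflammatory and interferon genes had a median of -0.15 over 19 tested with 8 libraries (13 lower), 0 at an unadjusted p under 0.05. With 7 libraries the median was -0.85 over 22 tested (16 lower), 1 lower at that p (background 4.13%) and 1 below every WT library (background 3.22%).

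**Figure D5:**
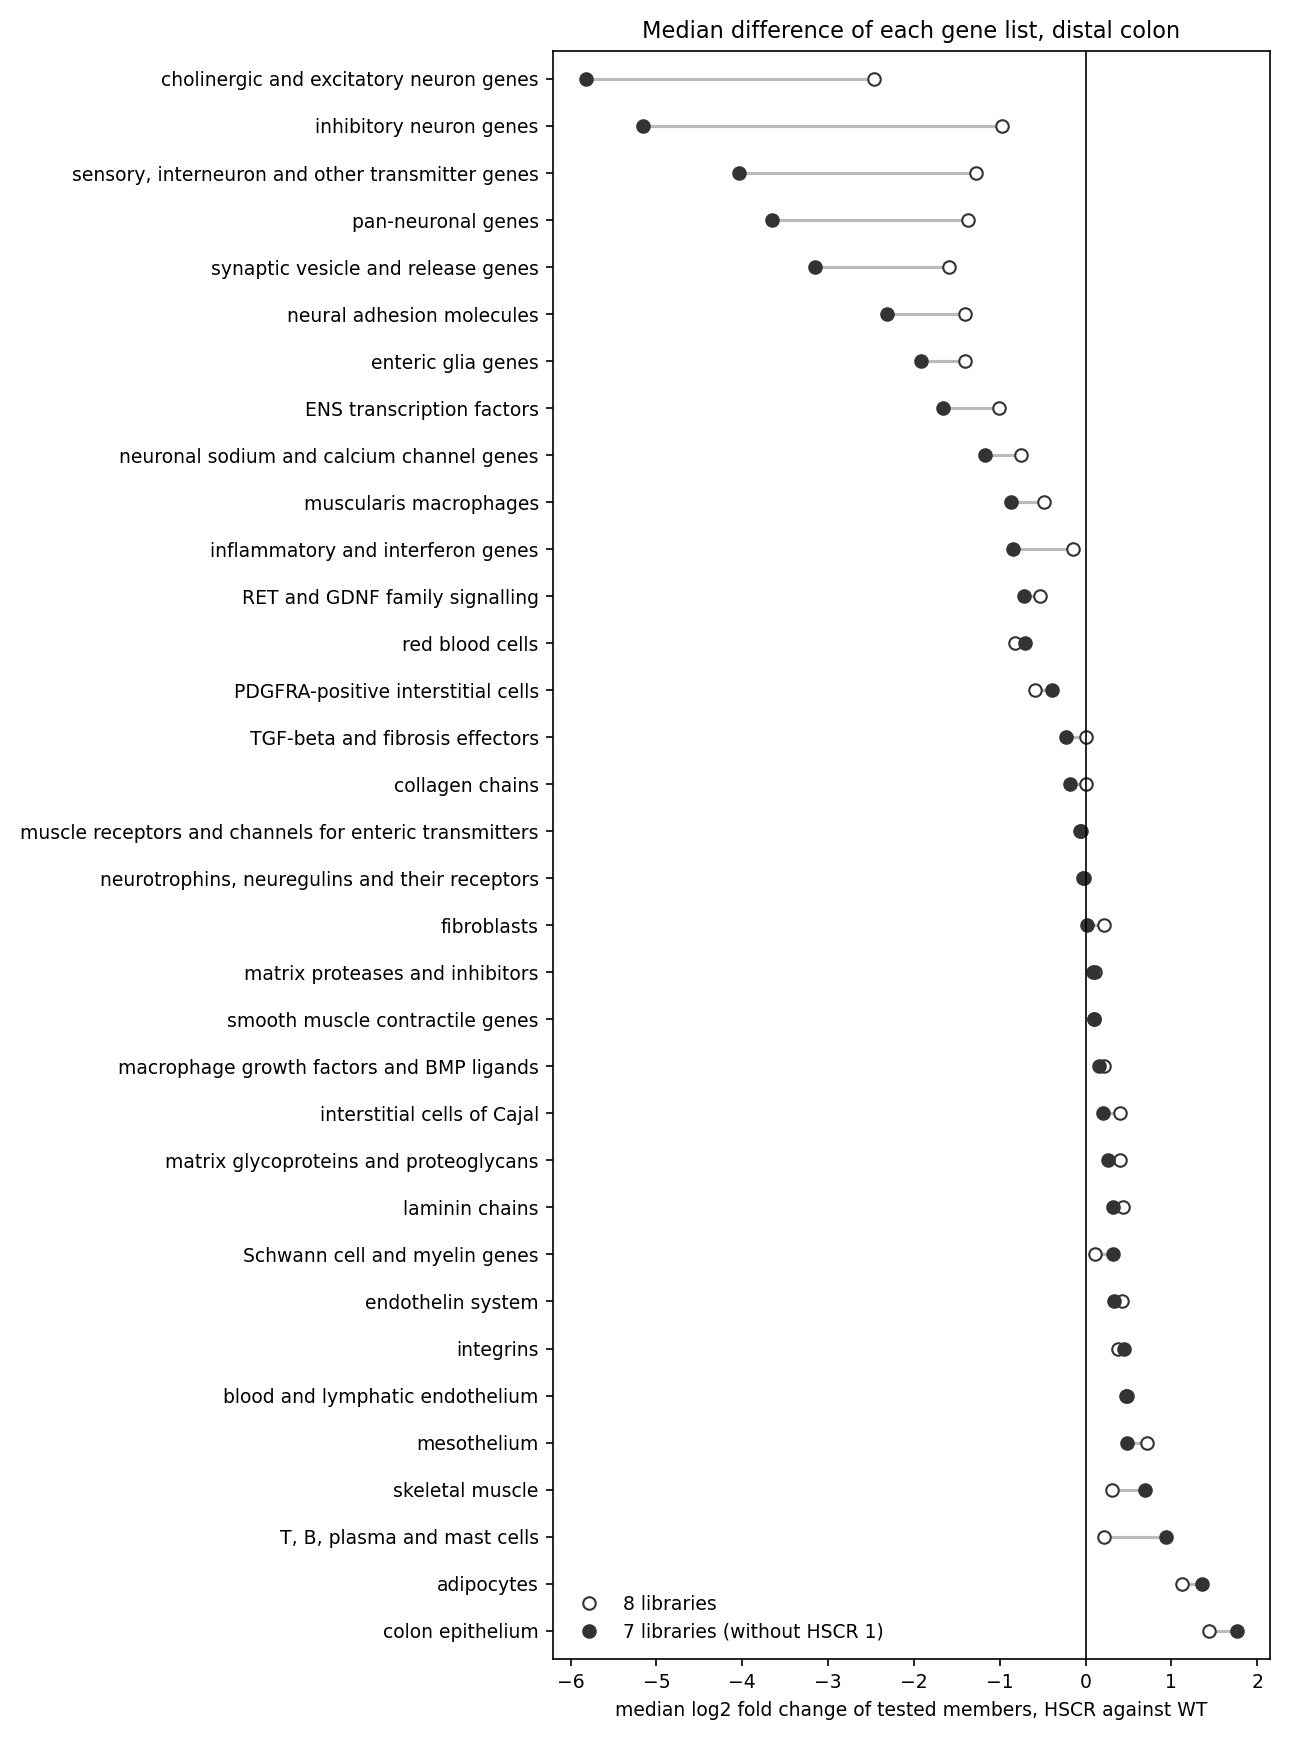
Median log2 fold change (HSCR over WT) of the tested members of 34 gene lists, on the horizontal axis, with open circles for 8 libraries and filled circles for the 7 without HSCR 1, ordered by the latter. The inhibitory neuron genes move furthest with the removal of HSCR 1, from -0.98 to -5.16, followed by the cholinergic and excitatory ones, from -2.47 to -5.82, while smooth muscle (0.09 and 0.09) and collagen (0.01 and -0.18) lists stay near 0.

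Whether the difference between genotypes depended on the segment was tested across all 16 libraries. No gene passed at an adjusted p under 0.05, 0% of 18619 genes by the edgeR quasi-likelihood test, with 269 at an unadjusted p under 0.05 and 9 called by DESeq2. Without HSCR 1 of both segments, 0 passed and 375 had an unadjusted p under 0.05. Hoxa9 was among those at an unadjusted p under 0.05, and its log2 fold change was 2.11 in the distal and 0.05 in the proximal colon, a difference of 2.06 (edgeR adjusted p = 1.00). For Elavl4 the values were -2.26 and -2.15 with all libraries, and -7.29 and -1.76 without HSCR 1 of each segment, where the difference was -5.52 (edgeR adjusted p = 1.00). For Gfap the difference was -3.99 (edgeR adjusted p = 1.00) in the same fit, and for Col9a2 -1.76 (edgeR adjusted p = 1.00).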

How the data were processed

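Poly(A) RNA of the LMMP was sequenced in 16 libraries, of which the 8 distal ones were compared here. Reads were aligned by the authors to mm39 (HISAT2 2.2.1) and assigned to GENCODE genes (featureCounts 2.0.6); the release and the strand setting are not given in the sources used here, so overlapping and antisense genes may share reads. The deposited raw counts (56748 genes, 23907 without a count) were used for all tests. The FPKM values deposited by the authors were read and entered no test.

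Counts were fitted with edgeR 4.0.16 (filterByExpr, TMM, quasi-likelihood F test, HSCR against WT with no covariate, Benjamini-Hochberg adjustment over all genes tested). A gene was called at an adjusted p under 0.05 and a log2 fold change beyond 1. The SE of a fold change is its size divided by the square root of F. CPM were TMM-scaled over all 16 libraries. List means are means of log2 CPM with a prior count of 0.5, compared by exact two-sided permutation over libraries and adjusted over 19 cell type lists. Alternatives were DESeq2 1.42.0, the likelihood ratio test, limma 3.58.1 voom with quality weights, a likelihood ratio test with 4 factors computed from residuals as in RUVr, other scalings and filters, added terms, and leaving out each library. Intervals and floors (3 counts, 95% exact Poisson) cover counting error only. The quasi-likelihood fits with 8 and 7 libraries were tested on simulated data, the alternatives were not. Recovery of changed genes was required there only at a smaller spread than that of these libraries. The simulation is therefore a check of the computing and does not show what size of change the fits could detect here. Computing was done in R 4.3.3 and Python 3.11.15.

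The named genes were Ednrb, the 10 genes the study names in its proximal colon, the genes called in a fit or, with fewer than 5 in a direction, the 5 with the smallest p (predicted genes left out), and of each list the called members and the 3 with the highest mean CPM. The 40 gene lists and the members were chosen with earlier results of these data known. The authors' group means, fold changes and p-values for their 4 comparisons were not used. A few members of the gene lists count in the list values and are not reported singly here.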

Additional observations from a re-analysis of the deposited data

Results flagged for a closer look

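Of 170 values examined in groups of 4 libraries, 17 had 1 library whose gap to the nearest of the others exceeded Dixon's 95% critical value for 4 samples. Chance gives about 1 in 20 groups. Of the 17, 9 were in HSCR distal 1, 3 in HSCR distal 2, 3 in WT distal 1 and 2 in WT distal 2. The values examined include genes named because they differed without HSCR 1, and others chosen after their values were seen, so the number in HSCR 1 cannot be read against chance.

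In the library labelled HSCR distal 1, log2 CPM lay far above the other 3 HSCR libraries for the neuronal and glial genes Ret (6.35 against 1.95 to 2.59), Elavl4 (5.38 against -0.76 to 0.01) and Gfap (4.79 against -0.09 to 0.43). The same held for Calb2 (3.35), Grp (5.22), Nrsn1 (4.29), Vwa5b1 (3.29) and Nmu, the peptide neuromedin U (1.94). Timp4 lay far below them (-0.26 against 3.11 to 3.27).

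In HSCR distal 2, Hoxa5 (1.80 against 2.80 to 2.92) and the mesothelium list mean (-0.33 against 4.42 to 4.67) were low and the skeletal muscle list mean was high (4.83 against -1.94 to -0.86). In WT distal 1, Kcng4 (3.57) and Lgi4, a protein secreted by glia (3.04), were low and Mmp7 (-0.17) was high, the last at a level of few counts. In WT distal 2, Sdc1 (3.14) and Selenos (3.11) were low.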

How the results depend on the processing

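The count of genes called between HSCR and WT distal colon was 0 by the edgeR quasi-likelihood test under every scaling and filter tried and without each library in turn, and it moved with the test: 50 by DESeq2, 7 by the likelihood ratio test, 0 by limma-voom and 1134 with 4 RUVr factors. Without HSCR 1 the counts were 360, 142, 0 and 2160, and leaving out a further library gave 0 to 1 (1, Gfap, without WT 4). Genes at an unadjusted p under 0.05 numbered 450 with 8 libraries. Leaving out 1 library gave 341 (without WT 3) to 928 (without HSCR 1), with 347 without HSCR 3, 705 without HSCR 2 and 835 without WT 1. From the 7 libraries without HSCR 1, leaving out a further library gave 499 (WT 3) to 1331 (HSCR 2). Among these, leaving out HSCR 3 gave 607, HSCR 4 gave 910 and WT 1 gave 1318. The interaction count was 9 by DESeq2. The cause was not tested in any of these.

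Whether the replicate numbers pair the samples is not stated in the labels and could not be settled from these values. Correlations of deviations were -0.25, 0.25, 0.07 and 0.49 for samples of the same number and -0.51 to 0.38 for samples of different numbers. With the replicate block, 0 genes were called with 8 libraries and 1 (Calb2) with 7, and 0 for the interaction. Genes at an unadjusted p under 0.05 with the block numbered 731 with 8 libraries and 2050 with 7. The block gave a median of -4.46 for inhibitory neuron genes and 0.52 for posterior Hox genes.

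Ednrb turned direction by limma-voom (-1.44), RUVr (-0.76), library names as a term (-0.16), the block (-1.09) and over single libraries left out (-1.83 to 0.63, lowest without HSCR 1). Penk turned with library names as a term (0.040) and over libraries left out (-1.97 to 0.59, highest without WT 3). Leaving out single libraries gave list medians of -5.82 to -1.63 for cholinergic, -5.16 to -0.43 for inhibitory and -4.04 to -0.24 for sensory genes and -4.24 to -1.14 for the study's 10 genes, each lowest without HSCR 1, -1.08 to 0.39 for Schwann cell genes (lowest without HSCR 2) and -1.28 to 1.73 for T, B, plasma and mast cells.

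Within the libraries named 07 and 12, HSCR 1 included, cell type list means turned for pan-neuronal (1.17), ENS transcription factor (0.12), inhibitory (0.49), sensory (0.40), fibroblast (-0.11), T, B, plasma and mast cell (-0.0055) and red blood cell genes (0.19). Within the LC libraries they turned for interstitial cells of Cajal (-0.35), PDGFRA-positive cells (-0.84), smooth muscle (-0.072) and macrophages (0.11). Of the other lists, those of synaptic vesicle (0.82), sodium and calcium channel (0.75), RET (0.22), adhesion (0.23), neurotrophin and neuregulin (0.51), endothelin (0.31), collagen (0.53), protease (0.11), TGF-beta (0.16), posterior Hox (-0.19), sex-linked (-0.25) and the study's 10 genes (0.25) turned within 07 and 12, and those of muscle receptors (-0.43), matrix glycoproteins (-0.26), integrins (-0.03) and macrophage growth factors (-0.02) within LC. PDGFRA-positive cells turned with a prior count of 2 (-0.10) and without HSCR 1 (-0.055), as did skeletal muscle (0.060).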

Other observations

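Mesothelial genes, which mark the outer lining of the gut, were higher in 10 of 10 tested members with 8 libraries and 8 of 10 with 7 (medians 0.71 and 0.48), none at an unadjusted p under 0.05. Their list means were 0.15, 1.33, 3.78 and 4.40 in WT 1 to 4 and 4.67, -0.33, 4.44 and 4.42 in HSCR 1 to 4, so that WT 1, WT 2 and HSCR 2 were low. Red blood cell genes were lower in 6 of 6 tested in both fits (medians -0.83 and -0.70), none at an unadjusted p under 0.05, with WT 1 the lowest library. Integrins, the receptors by which cells hold on to matrix, were higher in 16 of 19 and 15 of 19 (medians 0.38 and 0.45), also none at an unadjusted p under 0.05, and their list means were 4.01, 3.37, 5.44 and 5.48 and 4.67, 3.69, 5.63 and 5.24.

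Cxadr, a junction protein that epithelial cells also carry, was the member of the PDGFRA-positive cell list on the higher side with 7 libraries and was chosen after its values were seen. It stood at 7.82, 1.46, 7.29 and 13 CPM in WT and 12.1, 18.9, 55.9 and 19.6 CPM in HSCR libraries.

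Ednrb lies on chromosome 14, where a targeted allele can carry along neighbouring genes of the strain it was made in. Of the 17059 genes tested with 8 libraries 584 (3.42%) were on chromosome 14, and of the 312 that lay apart between the genotypes 13 (4.17%) were. With 7 libraries 27 of 933 (2.89%) were.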
